A study of Homo sapiens with 9 samples.

Results

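The genes described here are 10 colorectal cancer methylation markers, genes whose promoter DNA is measured in stool, blood or tumour tissue because it is often methylated in colorectal tumours. They are NDRG4, BMP3, TFPI2, GATA4, GATA5, SDC2, TMEFF2, ALX4, EYA4 and HLTF. All 10 were chosen by name from the 23284 gene symbols of the deposited tables, and all 10 were found there. No cutoff on measured values was used, but earlier results of these data were known when they were chosen. The questions were whether each gene was off in untreated HT-29 cells and how it responded to 5 µM and 10 µM of a DNA methyltransferase inhibitor. HT-29 is an established cell line from a human colorectal adenocarcinoma. The study grew 9 separate HT-29 cultures for 5 days, of which 3 received the vehicle DMSO alone (0 µM, the control), 3 received 5 µM 5-Aza (5-aza-deoxycytidine) and 3 received 10 µM 5-Aza. Whether counting used the strand of the reads is not given in the sources used here. All cultures come from 1 cell line, so the replicates measure the spread between cultures of that line.

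DNA methyltransferases copy the methylation of cytosine in CpG dinucleotides onto the new strand when DNA is replicated. 5-Aza is built into DNA, traps these enzymes there and so lowers methylation as cells divide. Dense methylation of a CpG-rich promoter is known to go with a silent gene, and a marker gene silenced in this way can be transcribed again when methylation is lost. Methylation itself was not measured in the files used here, and only RNA is described. In bulk RNA a lower share of cells expressing a gene and less RNA per cell cannot be told apart.

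The promoter sequences below show where the CpG dinucleotides lie ahead of the start sites of marker genes that were listed above 0 in HT-29 cells. Promoters of 5 of the 10 genes (NDRG4, TFPI2, TMEFF2, EYA4 and HLTF) were matched by symbol to RefSeq sequences of build GRCh38.p14, and BMP3, GATA4, GATA5, SDC2 and ALX4 were not matched. Each sequence is the 250 bases before the start site, read 5′ to 3′ on the strand of the gene, with each CG in capitals. HLTF is shown for its response to 5-Aza, NDRG4 for its expression without treatment, and TFPI2 and EYA4 because they were detected in every library. The HLTF sequence lies at chr3:149086534-149086783 on the minus strand, the first of the 4 NDRG4 promoters at chr16:58463465-58463714 on the plus strand, the TFPI2 sequence at chr7:93890754-93891003 on the minus strand and the EYA4 sequence at chr6:133241107-133241356 on the plus strand.
HLTF: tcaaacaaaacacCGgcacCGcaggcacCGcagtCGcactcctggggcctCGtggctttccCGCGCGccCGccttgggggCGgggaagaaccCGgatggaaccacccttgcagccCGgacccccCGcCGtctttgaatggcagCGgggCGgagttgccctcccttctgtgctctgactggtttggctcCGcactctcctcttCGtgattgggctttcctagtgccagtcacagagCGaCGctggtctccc
NDRG4: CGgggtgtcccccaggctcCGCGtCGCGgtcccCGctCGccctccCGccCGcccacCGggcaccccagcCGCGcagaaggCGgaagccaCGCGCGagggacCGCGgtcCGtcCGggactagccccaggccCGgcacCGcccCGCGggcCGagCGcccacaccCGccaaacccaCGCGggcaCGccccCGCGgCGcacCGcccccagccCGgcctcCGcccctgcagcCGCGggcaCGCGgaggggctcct
TFPI2: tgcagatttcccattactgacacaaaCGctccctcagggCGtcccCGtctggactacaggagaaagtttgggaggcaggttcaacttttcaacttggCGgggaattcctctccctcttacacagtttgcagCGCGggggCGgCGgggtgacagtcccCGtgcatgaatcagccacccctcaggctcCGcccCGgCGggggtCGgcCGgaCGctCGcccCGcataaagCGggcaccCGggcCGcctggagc
EYA4: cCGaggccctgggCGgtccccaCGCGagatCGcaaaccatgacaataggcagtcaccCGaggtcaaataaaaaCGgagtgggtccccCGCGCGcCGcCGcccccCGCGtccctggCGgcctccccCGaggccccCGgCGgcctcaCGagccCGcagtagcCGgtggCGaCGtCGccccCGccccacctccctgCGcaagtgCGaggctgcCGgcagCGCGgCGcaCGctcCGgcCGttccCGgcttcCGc

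The HLTF and TFPI2 promoters each held 20 CG dinucleotides, and 32.4% of the 35116 RefSeq promoters of the same length held as many or more. EYA4 held 36, a number reached by 4.85% of promoters, and TMEFF2 held 18, reached by 36.8%. The 4 annotated NDRG4 promoters differed widely, with 40, 29, 7 and 3 CG dinucleotides, which 2.16%, 14.1%, 58.9% and 77.1% of promoters reached. The median over all promoters was 11 (quartiles 3 and 23). The files give 1 value per library for NDRG4 and do not show which NDRG4 start site was used.

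**Figure D1:**
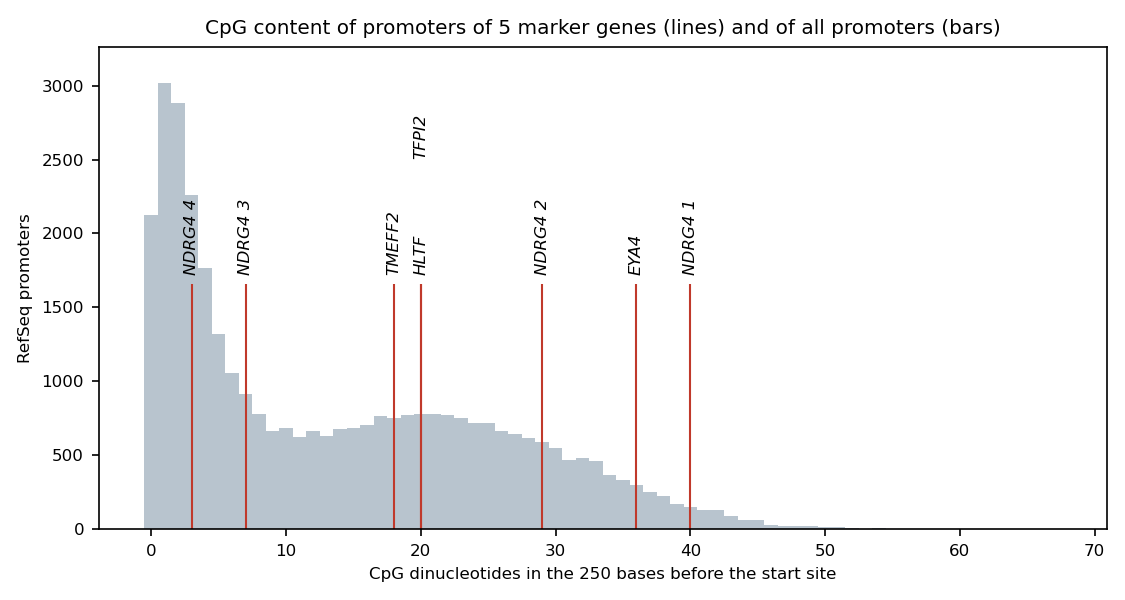
Number of CpG dinucleotides in the 250 bases before the start site (x axis) for all 35116 RefSeq promoters (bars, number of promoters on the y axis) and for the promoters of 5 marker genes (vertical lines, with NDRG4 numbered 1 to 4 along the chromosome; line height has no meaning). EYA4 and the first NDRG4 promoter lie at 36 and 40, beyond the upper quartile of 23, while HLTF and TFPI2 share the value 20.

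Expression is given as the deposited FPKM, fragments scaled by transcript length and by library, which is a value per length and allows genes to be compared. The values of these files are far larger than usual FPKM, with a median of 62933 in the control among the 17755 symbols above 0 in at least 1 control replicate, and they are used as relative values. Low values step in whole fragments, so the number of fragments behind each value could be estimated from the annotated transcript length. The libraries held between 13023071 (10 µM replicate 1) and 35729684 (5 µM replicate 3) estimated fragments. The authors' normalization divided them by a term, given here relative to control replicate 1. It was higher for all 5 µM libraries (2.29 to 2.57) than at 0 µM (1 to 2.14) and 10 µM (1.27 to 2.01). At 5 µM 1 fragment was thus worth the least FPKM, and a gene of low FPKM was more readily seen there. By estimated fragments the order differed, with control replicate 3 (32738672) above 5 µM replicates 1 (30656619) and 2 (31922559). The part of library depth in the results below was not tested, and the fragments behind the low values of the 10 genes are given. All 10 colon epithelial marker genes were above 0 in every group, with a summed FPKM between 83882913 and 100840468 in the control, between 33722122 and 38094472 at 5 µM and between 26995670 and 46994802 at 10 µM. Keratins carried most of that sum, and KRT8 (mean 39381667 FPKM in the control and 12559833 at 5 µM), KRT18 (32981667 and 10580903) and KRT19 were called down at 5 µM, where CEACAM5 (3.01 times the control mean) and CDX1 (4.39 times) were called up. The other 5 genes of the list were not called. CDX2 (0.603 times), VIL1 (0.723 times) and KRT20 (0.724 times) had all 5 µM values below all control values, short of a 2-fold change. EPCAM (0.859 times) and CDH1 (0.96 times) overlapped the control. Summed FPKM of 8 fibroblast markers lay between 23405 and 32633 in the control, between 86723 and 94425 at 5 µM, where DCN was at 0, and between 46289 and 53827 at 10 µM, where COL1A2 was at 0. Sums of 4 endothelial markers lay between 1901 and 5031, between 9843 and 12404 and between 3267 and 3588, with CDH5 and KDR at 0 in the control and KDR at 0 at 10 µM. Sums of 6 leukocyte markers were lower in the treated groups, between 8689040 and 8940932 in the control, between 4563236 and 5427751 at 5 µM and between 4730173 and 6881530 at 10 µM, with CD3E at 0 in the control. LYZ made up most of the leukocyte sum, while CD3E and CD68 were called up at 5 µM and no leukocyte marker was called down there. The part of these shifts in the results on the marker genes was not tested.

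In the control, 3 of the 10 genes (BMP3, SDC2 and TMEFF2) were listed at 0 in all 3 replicates, against 23.7% of all symbols. GATA4 and GATA5 were above 0 in replicate 3 alone, HLTF in 2 replicates, and NDRG4, TFPI2, ALX4 and EYA4 in every replicate. Of the latter, only NDRG4 rested on more than 15.7 estimated fragments in any control library. Counted as fewer than 10 estimated fragments in every control replicate, 6 genes were off (BMP3, GATA4, GATA5, SDC2, TMEFF2 and HLTF). The estimate uses the annotated transcript length, and for BMP3, TFPI2, SDC2 and TMEFF2 the smallest whole step in the values gives fewer fragments. Counted by that step, TFPI2 rested on 4, 4 and 7 fragments in the control and would also be off at the limit of 10. Counted as fewer than 100, all but NDRG4 were off. The share of all genes under these fragment limits was not computed, so these counts cannot be set against all genes. An exact 0 can also be a failed estimate, and it allows a level of up to 3 fragments, which is given beside each gene listed at 0. These limits cover counting error only.

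**Figure D2:**
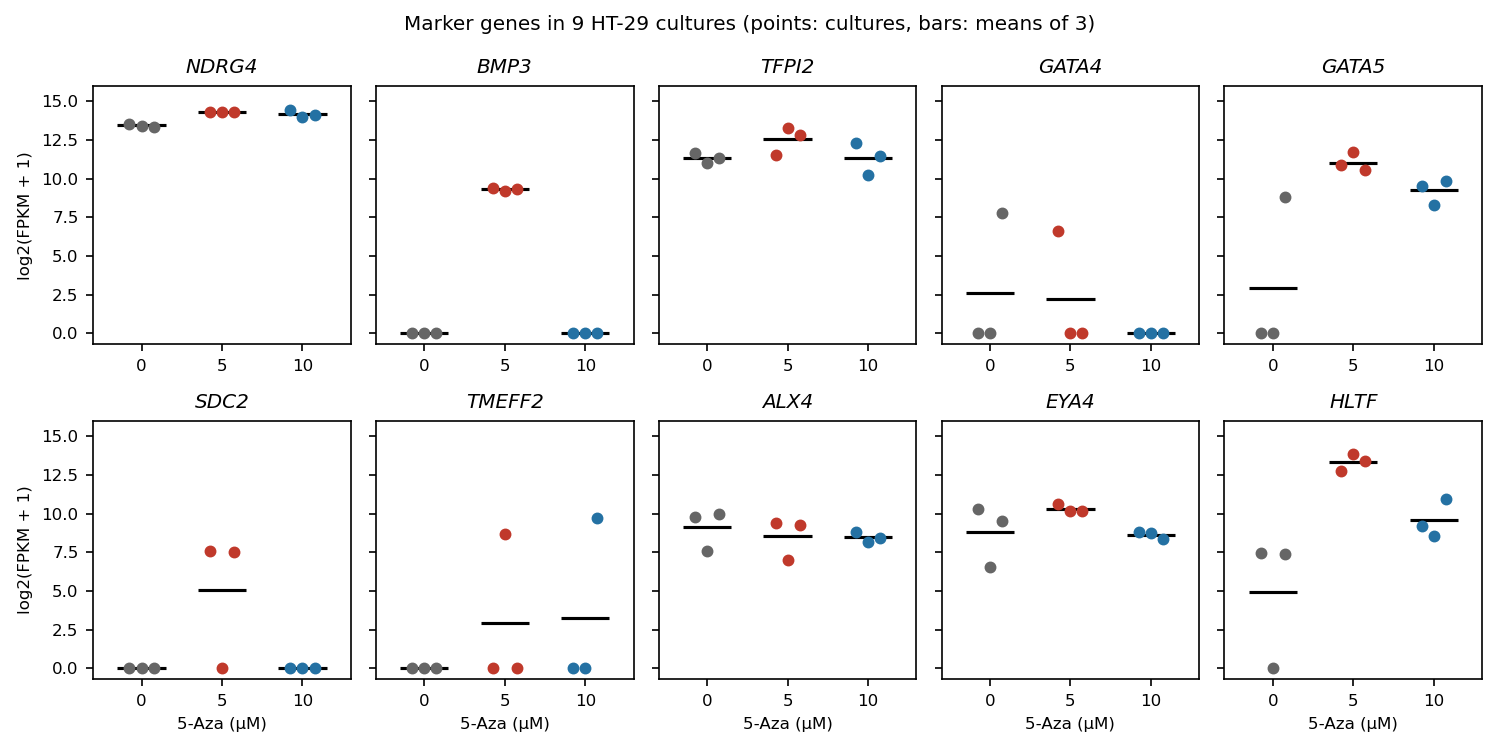
Expression of the 10 marker genes as log2(FPKM + 1) (y axis) against the 5-Aza concentration in µM (x axis), with 1 point per culture and a bar at the mean of 3. NDRG4 lies near the top in all cultures, BMP3 leaves 0 at 5 µM alone, and the 5 µM points of HLTF and GATA5 lie above all others of the same gene.

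From 0 µM to 5 µM 5-Aza, 3 marker genes passed the test upward (BMP3, GATA5 and HLTF) and none passed it downward. A gene was called at an adjusted p of at most 0.05 and at least a 2-fold change on the log2(FPKM + 1) scale (limma, with the Benjamini-Hochberg adjustment over all genes tested). Over all 20051 genes tested, 14.1% were called up and 2.17% down, so calls upward were common and 3 of 10 is to be read against that share. The 5 µM values lay above all control values for 4 of the 10 genes (the called genes and NDRG4), against 29.4% of all genes. The median log2 fold change of the 10 genes was 2.22, beside 0.14 over all genes tested. Fitted changes from 0 depend on the added 1. Over the 7 marker genes above 0 in both groups, meaning in any library of each, the median was 1.21, beside 0.03 for all such genes. This median is not free of the added 1, since GATA4, GATA5 and HLTF among the 7 had control values at 0.

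From 5 µM to 10 µM, BMP3 and HLTF were called down and no marker gene was called up. Among all 20085 genes tested, 4.82% were called down and 0.129% up. All 10 µM values lay below all 5 µM values for 4 marker genes (BMP3, GATA5, EYA4 and HLTF), against 25.3% of all genes. The marker genes had a median log2 fold change of -1.74, against -0.31 over all genes tested, and of -1.23 against -0.27 among genes above 0 in both groups. This comparison shares the 5 µM cultures with the first, so a high 5 µM value enters both.

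Between the control and 10 µM, none of the 8 marker genes that could be tested was called in either direction by limma, while 4.07% of all 18928 genes tested were called up and 3.4% down. By limma's p before adjustment over all genes, 2 of the 8, NDRG4 (0.0161) and GATA5 (0.0374), were under 0.05. Such p were common. Under 0.05 with a change beyond 2-fold as well, which GATA5 had and NDRG4 had not, were 1336 genes upward and 838 downward of the 18928. NDRG4 and HLTF had 10 µM values above all control values, against 14.4% of all genes. The median log2 fold change of the 8 genes was 0.35, beside -0.15 for all genes, and also 0.35 over the 6 above 0 in both groups, beside -0.19. BMP3 and SDC2 were at 0 in all 6 libraries of this comparison and were not tested. The comparison shares its control cultures with the 5 µM comparison.

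**Figure D3:**
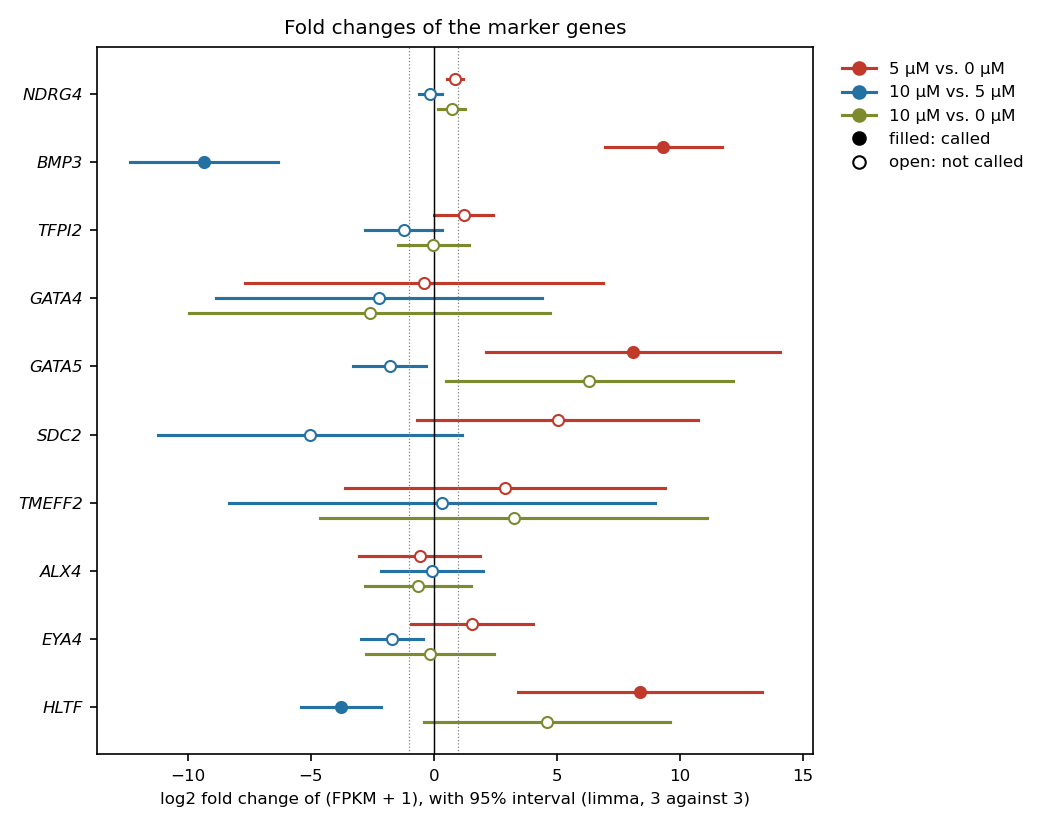
Log2 fold change of FPKM + 1 (x axis) with its 95% interval for each marker gene (y axis) in the 3 comparisons, with filled points for called genes and dotted lines at a 2-fold change. The intervals of NDRG4 are the narrowest, and the points of BMP3, SDC2 and TMEFF2 depend on the added 1 because their control values were all 0. Against the control, the points of GATA4, GATA5 and HLTF depend on it too, because some of their control values were 0.

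HLTF encodes a DNA translocase of the SWI/SNF family and ubiquitin ligase that acts on stalled replication forks. GRCh37 places it on chromosome 3, bases 148747914 to 148804341, minus strand. Its FPKM was 177.2, 0 and 166 in control replicates 1 to 3, 6777, 14860 and 11022 at 5 µM, and 583.7, 369.4 and 2005 at 10 µM. Every 5 µM value was above every 10 µM value, and every 10 µM value above every control value, so that no groups overlapped. Group means ± SD (n = 3) were 114.4 ± 99.25 at 0 µM, 10886 ± 4043 at 5 µM and 986.1 ± 889.2 at 10 µM. HLTF thus stood above 3.76% of the symbols detected in the control and above 34.5% of those detected at 5 µM. The rise at 5 µM was 8.38 on the log2 scale (standard error 2.05, 95% interval 3.41 to 13.35, limma adjusted p = 0.0204), and the fall from 5 µM to 10 µM was -3.77 (standard error 0.69, interval -5.39 to -2.15, adjusted p = 0.0229). Between control and 10 µM the difference of 4.61 (standard error 2.13, interval -0.38 to 9.60) missed the threshold (adjusted p = 0.166). With a pseudocount of 1000 in place of 1, the changes were 3.36 at 5 µM (adjusted p = 0.000194) and -2.61 from 5 µM to 10 µM (adjusted p = 0.00785).

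The control values of HLTF rest on few fragments. They amount to about 1.18, 0 and 2.37 estimated fragments, against 109, 227 and 189 at 5 µM and 4.95, 4.95 and 22.8 at 10 µM. For the 0 of control replicate 2, 3 fragments would have been worth 297.7 FPKM. Set against each other with the libraries' normalization terms, 525 fragments at 5 µM and 4 in the control gave a ratio of 83.9 (95% interval 32.6 to 309 for counting error only), and 33 fragments at 10 µM gave 7.69 (2.74 to 29.9). These are summed estimates rounded to whole numbers and not counts, and HLTF was given no whole step, so the intervals are approximate. The ratio of mean FPKM to the control was 95.1 at 5 µM and 8.62 at 10 µM. In the annotation, 1649 of the 6024 exonic bases of HLTF (27.4%) are shared with GYG1, the glycogen-starting enzyme glycogenin, on the opposite strand. GYG1 was far higher, with means ± SD (n = 3) of 171183 ± 17180, 133945 ± 16522 and 152497 ± 36241 FPKM from control to 10 µM, and its 5 µM values were all below its control values without passing the test (log2 fold change -0.36, standard error 0.12, limma adjusted p = 0.0545). Without strand, reads of the shared stretch cannot be told apart. The HLTF call at 5 µM was lost when any single 5 µM replicate was left out, with adjusted p between 0.0679 and 0.0771 and the log2 fold change between 8.12 and 8.69. Its size depended on the control, with 5.91 without control replicate 2, the library at 0, 9.65 without replicate 1 and 9.60 without replicate 3, and it was called in each case. The call from 5 µM to 10 µM was lost when any one 5 µM replicate or 10 µM replicate 1 was left out, with adjusted p between 0.0559 and 0.130.

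BMP3, a secreted growth factor of the TGF-beta superfamily and, with NDRG4, a target of stool DNA screening, was seen at 5 µM only. In GRCh37 the gene spans bases 81951862 to 81978781 of chromosome 4 (plus strand). It was listed at 0 in all control and all 10 µM libraries, and at 688.8, 604 and 643.8 FPKM at 5 µM, a mean of 645.6 ± 42.4 (SD, n = 3). The 5 µM replicates lay close together and above all others. The call was upward from 0 µM to 5 µM (limma adjusted p = 0.000919) and downward from 5 µM to 10 µM (adjusted p = 0.00947), and no fold is given against groups at 0. With a pseudocount of 1000 it was under the 2-fold threshold in both comparisons. The 5 µM level was above only 13.7% of the symbols detected there.

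The depth behind BMP3 is small. The 5 µM values correspond to 12.7, 10.6 and 12.7 fragments by the annotated transcript of 6087 nucleotides, or to 6, 5 and 6 by the smallest whole step in the values, which corresponds to a transcript of 2987 nucleotides. By annotated length, 3 fragments would have been worth 390.8, 258.8 and 183 FPKM in the control replicates and 307.5, 194.6 and 229.6 at 10 µM, all below the 5 µM values. By the smallest whole step they would have been worth 828.4, 548.7 and 388 in the control and 651.8, 412.5 and 486.8 at 10 µM. On that second reading the 0 of control replicate 1 could not be told from the 5 µM level at this depth, nor could that of 10 µM replicate 1 from the lower 5 µM values. The fall from 5 µM to 10 µM missed the threshold without 5 µM replicate 3 (adjusted p = 0.0583).

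GATA4 and GATA5 encode zinc finger transcription factors of endoderm-derived tissues such as the gut. GRCh37 places GATA5 on chromosome 20, bases 61038553 to 61051051, minus strand. Its FPKM was 0, 0 and 449.7 in the control, 1863, 3361 and 1493 at 5 µM, and 755.5, 318.7 and 940.5 at 10 µM. All 5 µM values were above all others, and those at 10 µM overlapped the control through control replicate 3. The means by concentration, each ± SD with n = 3, were 149.9 ± 259.6, 2239 ± 989.1 and 671.6 ± 319.3. The change from 0 µM to 5 µM was 8.10 on the log2 scale (standard error 2.47, interval 2.13 to 14.08, limma adjusted p = 0.0423), and 1.47 with a pseudocount of 1000 (adjusted p = 0.00416). The value at 10 µM had a log2 fold change of -1.79 against 5 µM (interval -3.28 to -0.30, adjusted p = 0.148) and did not pass the test, nor did the difference of 6.32 between 10 µM and control (standard error 2.49, adjusted p = 0.117).

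The GATA5 values rested on 3.02 estimated fragments in control replicate 3, on 14.1, 24.1 and 12.1 at 5 µM and on 3.02, 2.01 and 5.03 at 10 µM. In fragments weighted by library, the 5 µM level was 10.7 times that of the control (50 against 3 fragments, 95% interval 3.44 to 53.4 for counting error only), and the 10 µM level 3.11 times (10 against 3, interval 0.8 to 17.6). The call at 5 µM is near the threshold and was lost when any single library other than control replicate 3 was left out, with adjusted p between 0.0933 and 0.125. Without control replicate 3 the log2 fold change was 11.04 (adjusted p = 0.00121), and without control replicate 1 or 2 it was 6.63. For the 0 of control replicates 1 and 2, 3 fragments would have been worth 955.2 and 632.6 FPKM, below every 5 µM value. GATA4 (GRCh37 chromosome 8, 11534468 to 11617511, plus strand) was at 223.5 FPKM in control replicate 3 (2.05 estimated fragments), at 99.19 in 5 µM replicate 1 (1.03 fragments) and at 0 in the other 7 libraries, where 3 fragments would have been worth between 270.9 and 697.2 FPKM. A response of GATA4 was not detectable at this depth, with a log2 fold change of -0.39 at 5 µM and an interval from -7.65 to 6.87 (limma adjusted p = 0.928).

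**Figure D4:**
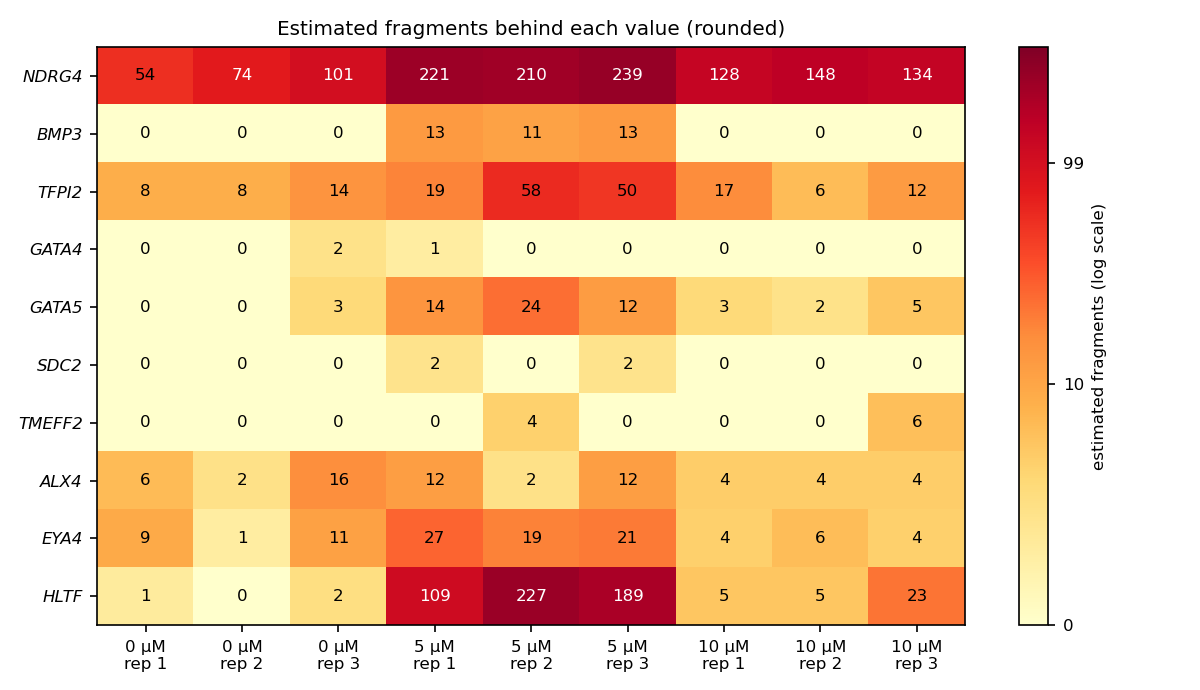
Estimated fragments behind each value, by annotated transcript length and rounded to whole numbers, for the marker genes (rows) in the 9 libraries (columns), with colour on a log scale. NDRG4 rests on 54 or more fragments in every library and HLTF on 109 or more at 5 µM, while GATA4, SDC2 and TMEFF2 never exceed 6.

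NDRG4, a cytoplasmic protein of the NDRG family and the partner of BMP3 in stool DNA screening, was expressed without treatment. In GRCh37 the gene spans bases 58496750 to 58547532 of chromosome 16 (plus strand). Its FPKM was 12158, 11071 and 10659 in the control, 20584, 20636 and 20823 at 5 µM, and 22522, 16491 and 17639 at 10 µM. Every treated value was above every control value, and the treated groups overlapped. With 3 cultures per group, the means ± SD were 11296 ± 774.1, 20681 ± 125.4 and 18884 ± 3202, so the 5 µM mean was 1.83 times and the 10 µM mean 1.67 times the control mean. The log2 fold change at 5 µM was 0.87 (standard error 0.14, interval 0.55 to 1.20, limma adjusted p = 0.00353), which passed the adjusted p but not the 2-fold threshold, and NDRG4 was not called. Scaled to the same total per library it was called (1.16, adjusted p = 0.00107). At 10 µM, as deposited, it was 0.73 (standard error 0.23, interval 0.18 to 1.28, adjusted p = 0.0735). The exact permutation test gave p = 0.1 for both, 2-sided, the smallest value that 3 against 3 allows. With between 54.2 and 239 estimated fragments per library, NDRG4 was the best covered of the 10 genes in every control library. In the control it stood above 31.6% of the detected symbols, below the middle of the range.

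TFPI2 encodes a Kunitz-type inhibitor of serine proteases secreted into the extracellular matrix. GRCh37 places it on chromosome 7, bases 93514708 to 93520065, minus strand. Its FPKM was 3188, 2111 and 2613 in the control, 2982, 9763 and 7433 at 5 µM, and 5017, 1191 and 2810 at 10 µM. At 5 µM, replicates 2 and 3 were above all other libraries and replicate 1 was within the control range, so the groups overlapped. Averaged over 3 cultures, TFPI2 stood at 2637 ± 538.7 (SD) in the control, 6726 ± 3445 with 5 µM and 3006 ± 1921 with 10 µM. The 5 µM mean was 2.55 times the control mean, but the difference did not pass the test (log2 fold change 1.21, standard error 0.50, interval 0.00 to 2.41, limma adjusted p = 0.102). Without 5 µM replicate 1 the log2 fold change was 1.71 and was called (adjusted p = 0.0193). With 5 µM replicate 2 or 3 left out instead, it was 0.86 and 1.05 and was not called (adjusted p = 0.259 and 0.253). At 10 µM the log2 fold change against control was -0.02 (interval -1.46 to 1.42, adjusted p = 0.987). The values rested on 8.29 to 14.5 estimated fragments in the control, 18.7 to 58 at 5 µM and 6.22 to 16.6 at 10 µM by annotated length, or on 4 to 7, 9 to 28 and 3 to 8 by the smallest whole step.

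ALX4 and EYA4 act in transcription, the former as a paired-type homeobox factor and the latter as a coactivator and phosphatase of the eyes absent family. EYA4 (GRCh37 chromosome 6, 133561652 to 133853266, plus strand) was at 1268, 93.29 and 725.7 FPKM in the control, at 1581, 1171 and 1150 FPKM with 5 µM, and had 443.4, 420.9 and 331.2 FPKM with 10 µM. Every 10 µM value was below every 5 µM value, while the control overlapped the 5 µM group and its replicate 2, with 1.01 estimated fragments, lay below the 10 µM group. Group means ± SD (n = 3) were 695.6 ± 587.9 at 0 µM, 1301 ± 243.3 at 5 µM and 398.5 ± 59.37 at 10 µM. None of the comparisons passed the test, with a log2 fold change of 1.54 at 5 µM (interval -0.93 to 4.01, limma adjusted p = 0.271) and of -1.70 from 5 µM to 10 µM (interval -2.97 to -0.43, adjusted p = 0.118). Between control and 10 µM it was -0.16 (adjusted p = 0.938). The value at 5 µM rested on the control libraries, with 0.42 without control replicate 2 and 2.30 without replicate 1, and it was not called in either case.

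In GRCh37 ALX4 spans bases 44281990 to 44331689 of chromosome 11 (minus strand). Its FPKM was 870.7, 192.2 and 1019 in the control, 663.6, 127 and 620.3 at 5 µM, and 456.7, 289 and 341.1 at 10 µM. All groups overlapped, and control replicate 2 and 5 µM replicate 2 were the lowest libraries, with 2.09 estimated fragments each. The means by concentration, each ± SD with n = 3, were 694.1 ± 441, 470.3 ± 298.1 and 362.3 ± 85.83. No change of ALX4 passed the test, with log2 fold changes of -0.57 at 5 µM (interval -3.02 to 1.88, limma adjusted p = 0.665) and -0.64 at 10 µM (interval -2.79 to 1.51, adjusted p = 0.619). These intervals leave room for changes of more than 2-fold upward and downward.

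SDC2 and TMEFF2 are cell surface proteins, a heparan sulfate proteoglycan of the syndecan family and a transmembrane protein with EGF-like and follistatin-like domains. SDC2 (GRCh37 chromosome 8, 97506041 to 97624018, plus strand) was listed at 193.7, 0 and 181.1 FPKM at 5 µM and at 0 in all control and 10 µM libraries. TMEFF2 (GRCh37 chromosome 2, 192813769 to 193059659, minus strand) was at 418 FPKM in 5 µM replicate 2, at 842.3 in 10 µM replicate 3 and at 0 in the other 7 libraries. TMEFF2 was thus above 0 in 1 replicate of each treated group, and 5 µM replicate 2 of SDC2 was at 0 like the control. The SDC2 values correspond to 1.88 estimated fragments each, and those of TMEFF2 to 3.93 and 5.90, or by the smallest whole step to 1 each and to 2 and 3. By annotated length, 3 fragments in the control replicates would have been worth 742.6, 491.8 and 347.8 FPKM for SDC2 and 729.2, 482.9 and 341.5 for TMEFF2. By the smallest whole step they would have been worth 1398, 925.9 and 654.7 for SDC2 and 1433, 949.3 and 671.2 for TMEFF2. On either reading the SDC2 values at 5 µM lay below all of these limits, and a difference of SDC2 from the control was not detectable at this depth. The 842.3 FPKM of TMEFF2 lay above all control limits by annotated length but above only that of control replicate 3 by the smallest whole step, and the 418 FPKM lay above only that of control replicate 3 by annotated length and above none by the step. The limma adjusted p at 5 µM was 0.134 for SDC2 and 0.417 for TMEFF2. Without 5 µM replicate 2, in which it was at 0, SDC2 was called up (adjusted p = 0.00456). With 5 µM replicate 1 or 3 left out instead, SDC2 was not called (adjusted p = 0.279 and 0.284).

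Ordered by mean FPKM per gene, NDRG4 was the highest of the 10 at every concentration and did not overlap the next gene. In the control TFPI2 came second, between 2111 and 3188, without overlap with its neighbours. EYA4, ALX4, GATA5, HLTF and GATA4 followed, each overlapping the next, and then the genes at 0. At 5 µM, HLTF moved to the second place and overlapped TFPI2, which overlapped GATA5, which overlapped EYA4. EYA4 at 1150 or more was above BMP3 at 688.8 or less without overlap. BMP3 overlapped ALX4, whose range of 127 to 663.6 took in its lower values. At 10 µM the order was NDRG4, TFPI2, HLTF, GATA5, EYA4, ALX4 and TMEFF2, and each gene from TFPI2 down overlapped the next.

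A list of 30 other methylated DNA markers of colorectal cancer was examined beside the 10 genes. It too was drawn up with earlier results of these data known. At 5 µM, 12 of the 28 tested were called up, among them BCAT1, FBN1, FOXE1, INA, MAL, TAC1, THBD and VIM, and none down, beside 14.1% and 2.17% of all genes tested. Of the 30, 11 were listed at 0 in all control replicates, beside 23.7% of all symbols. The median log2 fold change was 3.77, beside 0.14 over all genes tested, and 3.03 over the 19 above 0 in both groups. MAL, a membrane protein of lipid raft trafficking, was at 0 in all control replicates, reached 27837, 29558 and 23559 FPKM with 5 µM, and had 4375, 8976 and 9771 FPKM with 10 µM, with limma adjusted p of 0.000129 at 5 µM and 0.0225 for the fall from 5 µM to 10 µM. THBD, the thrombin receptor thrombomodulin, was at 0 in all control replicates, reached 2407, 2532 and 2250 FPKM with 5 µM, and had 314.1, 0 and 469.2 FPKM with 10 µM (adjusted p at 5 µM = 0.000384). MAL at 5 µM was above NDRG4 in the same libraries, whereas the THBD range lay within that of GATA5.

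VIM, the intermediate filament protein vimentin, was at 0, 0 and 185.7 FPKM in the control, then reached 7582, 9193 and 14791 FPKM with 5 µM, and had 1248, 2172 and 1165 FPKM with 10 µM. Its groups did not overlap, in the order of HLTF. It was called up at 5 µM (log2 fold change 10.79, standard error 2.11, limma adjusted p = 0.00888) and at 10 µM (adjusted p = 0.048), and down from 5 µM to 10 µM (-2.78, adjusted p = 0.013). With 1 estimated fragment in the control and 196 at 5 µM, its ratio was 125 (95% interval 22.2 to 4975 for counting error only). From 5 µM to 10 µM, 6 of the 28 markers were called down (BCAT1, INA, MAL, TAC1, VIM and WIF1) and none up, beside 4.82% and 0.129% of all genes tested. Between control and 10 µM, 3 of 23 were called up, MAL and VIM among them, and none down, beside 4.07% and 3.4% of all genes, where none of the 10 genes described above was called. SFRP1 and TWIST1 were listed at 0 in all 9 libraries.

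**Figure D5:**
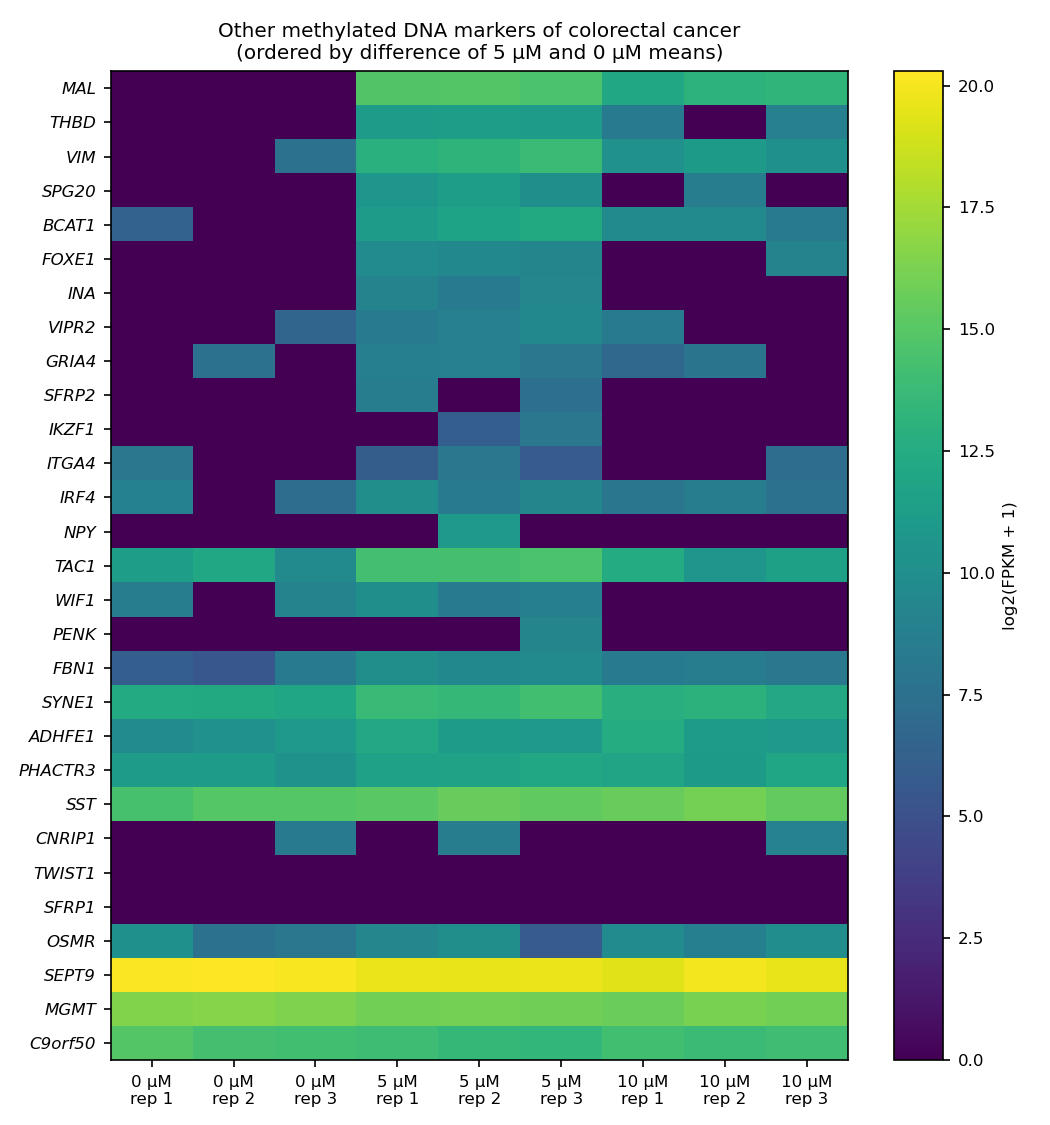
Log2(FPKM + 1) of other methylated DNA markers of colorectal cancer (rows, ordered by the difference between the 5 µM and 0 µM means) in the 9 libraries (columns), on a colour scale from 0 (dark) to the highest level (light). MAL, THBD and VIM are dark in the control, apart from VIM in replicate 3, and light at 5 µM, while SFRP1 and TWIST1 are at 0 throughout.

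Relatives of the marker genes in the same protein families were called in both directions. Of 26 relatives, 25 were tested at 5 µM, of which 2 were called up (SDC3 and BMP8B) and 2 down (BMP4 and TFPI). Their median log2 fold change was 0.01. Over all genes tested at 5 µM, 14.1% were called up and 2.17% down, with a median of 0.14. SDC3, a syndecan like SDC2, averaged 11763 ± 685.2 FPKM in the control, 69829 ± 4301 with 5 µM and 38765 ± 10037 with 10 µM (± SD, n = 3 each), a log2 fold change at 5 µM of 2.57 (standard error 0.11, limma adjusted p = 0.000112). All its treated values were above all control values. BMP8B rose from 13465 ± 2212 to 31166 ± 4593 FPKM (SD, n = 3; log2 fold change 1.21, adjusted p = 0.00344).

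BMP4, a bone morphogenetic protein like BMP3, was above 96.7% of detected symbols in the control at 1379287 ± 113684 FPKM (SD, n = 3). It fell to 598373 ± 15889 (SD, n = 3) at 5 µM, a log2 fold change of -1.20 (limma adjusted p = 0.000263), while BMP3 left 0 in the same libraries. At 10 µM BMP4 was at 893645 ± 17933 (SD, n = 3), above all its 5 µM values and below all control values. Its log2 fold change from 5 µM to 10 µM was 0.58 (limma adjusted p = 0.0394), under the 2-fold threshold. TFPI, the tissue factor pathway inhibitor and relative of TFPI2, fell from 703144 ± 4951 to 292895 ± 38813 FPKM (SD, n = 3; log2 fold change -1.27, adjusted p = 0.000407) and was at 275453 ± 46427 at 10 µM. NDRG1, the relative of NDRG4, was called down from 5 µM to 10 µM (393397 to 189748 FPKM, log2 fold change -1.08, adjusted p = 0.0203), where NDRG4 had -0.14 (adjusted p = 0.644).

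Of 22 binding partners of the marker proteins, 2 were called up at 5 µM and none down, beside 14.1% and 2.17% of all genes tested. The median log2 fold change of the 22 was -0.05, beside 0.14. Among the genes called up, ZFPM2, also called FOG2 and a cofactor of GATA factors, was at 0 in the control. It had 742.7, 390.8 and 208.3 FPKM with 5 µM, and 281.1, 266.9 and 210 FPKM with 10 µM. It was called up at 5 µM (limma adjusted p = 0.00173) and at 10 µM (adjusted p = 0.0245). These values rested on 11.1, 5.54 and 3.33 estimated fragments at 5 µM and on 2.22, 3.33 and 2.22 at 10 µM. The call at 10 µM thus rests on very few fragments, against control values of 0 that each allow up to 3. None of the 22 was called from 5 µM to 10 µM in either direction by limma, while the 10 µM values were below all 5 µM values for 4 of them, beside 25.3% of all genes tested.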

How the data were processed

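RNA-Seq was performed by the authors on 9 HT-29 cultures, 3 each at 0 µM, 5 µM and 10 µM 5-Aza, with RNA extracted separately from each culture. The authors filtered the reads with the FASTX-Toolkit, mapped them to hg19 with TopHat and ran Cufflinks to derive FPKM, and deposited 1 FPKM table per culture without pooling. The annotation version is not given in the sources used here, and the scale of the FPKM is larger than the usual definition gives. Strand use is not given either.

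Groups follow the sample labels. Each table has 24934 entries under 23284 symbols, and entries of the 543 repeated symbols were added up. Tests used log2(FPKM + 1), a pseudocount of 1 that hardly dampens changes from 0, so fold changes of low genes depend on it. A gene was tested where any value of either group reached 10 FPKM. Each pair of groups was compared over all such genes with limma 3.58.1 in R 4.3.3 (lmFit, then eBayes with a trend on mean level) and the Benjamini-Hochberg adjustment. Called genes had an adjusted p no higher than 0.05 together with a log2 change beyond 1 in size. The edgeR test planned in case of raw counts was not needed. Single genes also had an exact 2-sided permutation test over samples. Tables used Python 3.11.15, pandas 2.3.3, numpy 2.4.6 and scipy 1.17.1, and figures matplotlib 3.10.9. The fits were tested on simulated data with known changes, and the outcome is not given here. Its bearing on genes with few estimated fragments, such as the called markers in the control, was not tested.

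Depth was estimated, since the tables hold no totals. Each of the 46 values above 0 at 12 microRNA genes (110 nucleotides long) was a whole multiple of 1 step per library (100%, tolerance 0.01), which gave each library's relative normalization term. For longer genes 1 relation of step to transcript length was used, which 340 of 573 genes with clean steps followed within 15%. It gave estimated fragments for 17893 genes of at least 300 nucleotides. These estimates were not tested as counts, and intervals on them cover counting error only.

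Gene positions and transcript lengths are of GRCh37 and promoters are RefSeq sequences of GRCh38.p14. Named genes are the 10 markers and, per list, the called genes with the 3 largest rises and 3 largest falls at 5 µM, plus, for each marker above 0 in at least 8 of 9 samples, the 2 genes with the highest Pearson r. NDRG1, WIF1, SFRP1, TWIST1, GYG1, DNMT1 and DNMT3A were added after their values were seen. Some results under this rule are not reported here. The markers and lists were chosen with earlier results of these data known. Alternatives were pseudocounts of 0.1 and 1000, other filters, no fold threshold, limma's treat, other scalings, all 9 samples in 1 fit, a replicate block, the largest entry of repeated symbols, leaving out each replicate, and other limits for off. Microarray and qRT-PCR values were not analysed here.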

Additional observations from a re-analysis of the deposited data

How the results depend on the processing

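Of 483 log2 fold changes of the marker genes under other settings, 429 kept their direction and their side of the threshold, 26 lost a call, 6 gained one and 22 turned direction. Only BMP3, GATA5 and HLTF at 5 µM, and BMP3 and HLTF from 5 µM to 10 µM, had a call to lose. The 26 are thus to be read against the settings of these called changes alone, a far smaller number than 483. The call of BMP3 at 5 µM was lost only with a pseudocount of 1000, where its log2 fold change was 0.72 (limma adjusted p = 0.00303). The cause of these changes was not tested. The calls over all genes, which serve as background, varied more: 2818 up at 5 µM became 1463 with treat and 4263 without a fold threshold, 436 down became 70 and 3553, and the 969 down from 5 µM to 10 µM became 176 without 5 µM replicate 3 and 1873 without 10 µM replicate 2. The 26 up in that comparison became 7 with treat and 64 without a fold threshold. Between control and 10 µM, 771 up became 145 with treat and 1363 after total scaling, and 644 down became 16 with treat and 1837 without a fold threshold.

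The number of markers called up at 5 µM (3) was 1 without a filter on low values and 1 with limma's treat, and between 1 and 3 with a replicate left out, the lowest without 5 µM replicate 3. The number called down from 5 µM to 10 µM (2) was 1 with a pseudocount of 1000, 1 without a filter, 1 with treat and 1 with all 9 samples in one fit, and between 0 and 2 with a replicate left out, again lowest without 5 µM replicate 3. The number called up at 10 µM against control (0) was 1 when scaled to the same total (NDRG4) and between 0 and 1 with a replicate left out (GATA5 without control replicate 3). Markers off in the control (3) numbered 6 at a limit of 10 estimated fragments, 9 at a limit of 100, and 3 to 5 with a replicate left out, the highest without control replicate 3. No share over all genes was computed for these other counts of markers off.

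Same-numbered cultures did not deviate together: correlations of their deviations lay between -0.07 and 0.09 over 9 pairs, beside -0.16 to 0.10 over 18 pairs with different numbers, so the numbers only name the samples. With the replicate block, 0 markers were called down from 5 µM to 10 µM in place of 2, with adjusted p of 0.059 for BMP3 and 0.0543 for HLTF, and GATA5 missed the threshold at 5 µM (adjusted p = 0.0581).

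None of the log2 fold changes that turned direction was called as deposited. Under median-of-ratios scaling NDRG4 from 5 µM to 10 µM was 0.06, ALX4 from 5 µM to 10 µM 0.13, TFPI2 at 10 µM against control 0.22 and EYA4 in the same comparison 0.08. Under total scaling ALX4 was 0.02, TFPI2 0.36 and EYA4 0.22, and with a pseudocount of 1000 TFPI2 was 0.03. With a replicate left out, GATA4 at 5 µM ranged from -2.60 to 2.22 and ALX4 from -1.33 to 0.21. From 5 µM to 10 µM TMEFF2 ranged from -2.90 to 3.24 and ALX4 from -0.85 to 0.34. At 10 µM against control TFPI2 ranged from -0.51 to 0.53 and EYA4 from -1.28 to 0.60. Over the 15278 genes above 0 in all libraries, the median log2 difference as deposited was -0.04 at 5 µM, -0.22 from 5 µM to 10 µM and -0.24 at 10 µM against control, and 0.25, -0.13 and 0.14 after total scaling.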

Other observations

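Among 6 genes listed for DNA methylation, not all of them enzymes that 5-Aza traps, none was at 0 in all control replicates, beside 23.7% of all symbols. At 5 µM, 2 were called up and none down, beside 14.1% and 2.17% of all genes tested. DNMT3B, a de novo methyltransferase, was at 2755, 3622 and 5973 FPKM without 5-Aza, 11452, 9901 and 8749 with 5 µM and 9540, 6870 and 6268 with 10 µM, a log2 fold change at 5 µM of 1.35 (standard error 0.34, limma adjusted p = 0.0221). UHRF1, which brings the maintenance enzyme to newly replicated DNA, averaged 17886 ± 853.2 FPKM without 5-Aza, 38706 ± 3561 with 5 µM and 37190 ± 6745 with 10 µM (SD, n = 3). It was called up at both concentrations (log2 fold changes 1.11 and 1.04, adjusted p = 0.000995 and 0.0207). DNMT1, the maintenance methyltransferase, had a log2 fold change of 0.17 at 5 µM (adjusted p = 0.146) and DNMT3A one of -0.02 (adjusted p = 0.872). Unlike HLTF and BMP3, UHRF1 was near its 5 µM level at 10 µM, with a log2 fold change of -0.07 between them (interval -0.50 to 0.36).

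For the markers above 0 in at least 8 of 9 libraries, the genes with the highest Pearson r of log2(FPKM + 1) over the 9 libraries were sought among 15973 genes. Pearson r compares neither levels nor sizes of change. These correlations describe 9 points that share their treatment groups and libraries, and no p is given. NDRG4 was most like MAP3K15 (Pearson r = 0.985, Spearman rho = 0.98) and HSPA12A (r = 0.979, rho = 0.87), which averaged 357.5 and 3311 FPKM in the control and 5588 and 18937 at 5 µM. HLTF was most like LOC100653515 (r = 0.981, rho = 0.90) and C21orf58 (r = 0.976, rho = 0.97). Both changed far less than HLTF. From control to 10 µM, LOC100653515 averaged 10334, 22527 and 16874 FPKM and C21orf58 9121, 11822 and 10370, beside 114.4, 10886 and 986.1 for HLTF. TFPI2 was most like RAD21-AS1 (r = 0.904, rho = 0.92) and SYCE1L (r = 0.903, rho = 0.73). EYA4 was most like LOC100129175 (r = 0.943, rho = 0.85) and LOC100506866 (r = 0.942, rho = 0.90), and ALX4 like RXFP4 (r = 0.909, rho = 0.95) and ZNF556 (r = 0.870, rho = 0.90).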
